A study of Macaca mulatta with 26 samples.

Results

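RNA sequencing of the rhesus macaque pineal gland was set against pooled RNA of other organs, a comparison that asks which genes mark the gland among the tissues of the body. Of the 26 libraries of the series, 14 entered it, namely the 12 labelled as pineal gland and the 2 labelled as control. Each control library was a pool of equal amounts of RNA from 16 tissues, 1 pool from mid-day and 1 from midnight. The pooled tissues were cerebellum, frontal cortex, hippocampus, thalamus, caudate, medulla, corpus callosum, small intestine, kidney, heart, lung, liver, skeletal muscle, pituitary, ovary and testis. Genes were chosen by a minimum of 1 FPKM (fragments per kilobase of gene length, scaled to the library's depth) in at least 2 of the 14 libraries, which 22214 of the 50308 genes in the table met.

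The pineal libraries were from single glands of adult animals of both sexes, 3 to 33 years of age, collected over 11 years. The housing had a light phase of 12 h and an equal dark phase for at least 6 weeks, and 3 glands were taken at each of dawn, mid-day, dusk and midnight. The dusk and midnight animals were anaesthetised under dim red light. How many animals gave RNA to each pool is not given in the sources used here. A gene that only 1 pooled organ uses is diluted by the other organs, so a level in the pools is an average over 16 tissues and not the level of any of them. The 2 pools differ in time of day and were the only replicates of the background, so p-values measure the spread among 12 glands and between 2 pools.

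Depth, as reads assigned to genes, was 11.7 to 16.1 M in the pineal libraries, 23.0 M in the mid-day pool and 16.2 M in the midnight pool. Libraries of a group differed by more than counting noise, and the chi-square per gene was 16.4 to 36.3 between pineal glands of the same time and 40.3 between the pools. Several libraries stood apart. The pineal library dusk 3 held sperm genes, with protamine 1 (PRM1) at 237 FPKM against at most 0.18 in the other 11 glands, and 54 genes were above 5 FPKM in it and below 0.5 FPKM in every other gland. The mid-day pool nearly lacked testis genes although testis is among its labelled tissues. Its PRM1 level was 2.46 FPKM against 512 FPKM in the midnight pool, and the summed level of 9 testis genes was 10.1 FPKM against 1861 FPKM. The pineal library mid-day 2 held the pituitary hormone gene POMC at 86.7 FPKM, against 0.374 to 3.87 FPKM in the other glands, and it also had the highest summed level of choroid plexus genes (1960 FPKM), followed by dusk 1 (1547 FPKM). Without dusk 3, or without these 3 glands together, the number of members called in either direction changed by at most 2 in each of the 36 gene lists described below.

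The pineal gland is the source of circulating melatonin, which is made from tryptophan through serotonin and is released at night under the control of sympathetic nerves that release noradrenaline. Its main cell, the pinealocyte, shares a developmental origin and a large gene repertoire with retinal photoreceptors. In fish, amphibians and birds pineal cells sense light directly, whereas the mammalian gland receives its light signal from the retina through the brain clock and the sympathetic nerves. In a bulk sample, fewer cells of a type and less RNA per cell cannot be told apart, and this holds for each level given here.

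Levels of most tested genes differed between the gland and the pools. With limma on log2(FPKM + 0.5) and Benjamini-Hochberg adjustment over all 22214 genes, 11399 genes (51.3%) had an adjusted p under 0.05, and these are termed called. Of the genes tested, 5022 (22.6%) were called higher in the pineal gland and 6377 (28.7%) were called lower. Large differences leaned towards lower levels. A call with a difference of at least 4-fold was made higher for 599 genes (2.7%) and lower for 1787 genes (8.04%). All 12 glands lay above both pools for 4655 genes (21%) and below both for 5714 genes (25.7%). Without dusk 3 the test called 4907 of 21703 genes higher (22.6%) and 6101 lower (28.1%). The number called lower fell to 3882 without the mid-day pool and to 3020 without the midnight pool, while 3445 and 3593 genes were then called higher.

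**Figure D1:**
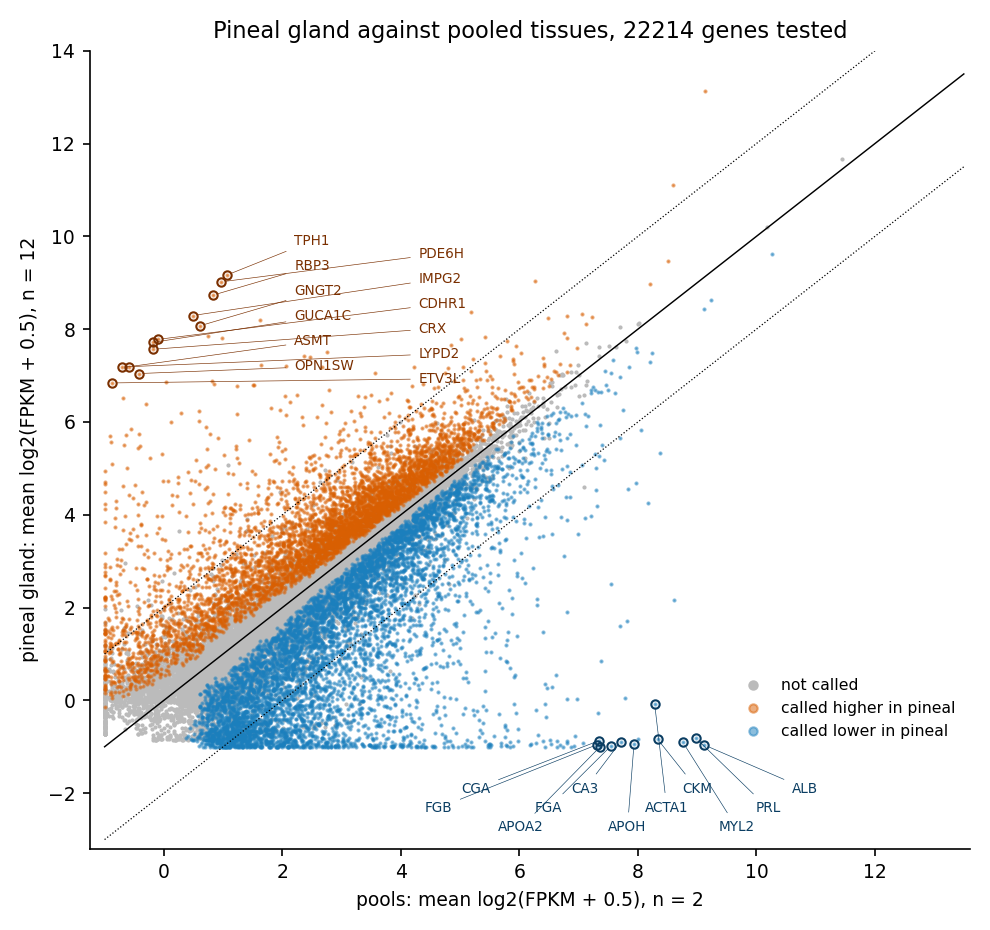
Mean log2(FPKM + 0.5) of the 12 pineal libraries (vertical) against that of the 2 pools (horizontal), 1 point for each of the 22214 genes tested, coloured by the call of limma's test. The solid line marks equal levels, the dotted lines a 4-fold difference, and the open circles name the genes of largest difference that the text reports in each direction; TPH1 is the uppermost circle at the left and ALB lies farthest to the right at the bottom.

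Among well expressed genes whose pineal and pool libraries did not overlap, the 12 with the largest rise over the pools were TPH1, PDE6H, RBP3, GUCA1C, LYPD2, CDHR1, IMPG2, ASMT, CRX, ETV3L, OPN1SW and GNGT2. Melatonin enzymes (TPH1 and ASMT), photoreceptor genes and a photoreceptor transcription factor (CRX) made up all but LYPD2 and ETV3L. RBP3, which encodes the retinoid carrier between photoreceptors and their support layer, ranged from 338 to 570 FPKM in the glands against 1.49 and 1.08 FPKM in the pools. CDHR1, a cadherin of the outer segment base, ranged from 183 to 265 FPKM against 0.495 and 0.380 FPKM. IMPG2, a proteoglycan of the matrix around photoreceptors, ranged from 239 to 374 FPKM against 0.899 and 0.911 FPKM. For these 3 genes the groups did not overlap, and the differences on the log2(FPKM + 0.5) scale were 7.90, 7.88 and 7.80 with standard errors of 0.174, 0.119 and 0.152 (limma, adjusted p = 4.12e-14, 1.04e-15 and 1.10e-14). The pseudocount of 0.5 understates such differences where the pool level is low.

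LYPD2 and ETV3L stood outside those groups. LYPD2, a member of the Ly6 family of small surface proteins, ranged from 59.5 to 308 FPKM with a median of 148 FPKM, against 0.134 and 0.0952 FPKM in the pools, a difference of 7.89 ± 0.412 (SE) on the log2 scale (limma, adjusted p = 8.09e-10). ETV3L, a gene of the ETS transcription factor family, ranged from 69.8 to 184 FPKM with a median of 117 FPKM, against 0.0660 and 0.0312 FPKM, a difference of 7.71 ± 0.245 (limma, adjusted p = 2.61e-12). Each was also near absent from the retina, with at most 0.0812 FPKM of LYPD2 and 0.0591 FPKM of ETV3L in any of its 12 libraries.

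The genes that turn tryptophan into melatonin were all called higher in the gland, 4 of 4, beside 22.6% of all genes. AANAT and ASMT were under 1 FPKM in both pools and so reached the minimum only through the glands. The count is given as a description. TPH1, the hydroxylase that starts serotonin synthesis, had the largest fitted rise of the named genes. It measured 431, 474 and 635 FPKM at dawn, 515, 502 and 817 FPKM at mid-day, 660, 640 and 533 FPKM at dusk and 455, 669 and 679 FPKM at midnight, against 1.35 and 1.86 FPKM in the pools. The 4 times overlapped and none approached the pools, and the difference was 8.10 ± 0.207 (SE) on the log2 scale (limma, adjusted p = 2.01e-13). ASMT, the methyltransferase of the last step, ranged from 89.8 to 187 FPKM with a median of 146 FPKM, against 0.135 and 0.192 FPKM, a difference of 7.78 ± 0.225 (limma, adjusted p = 8.58e-13).

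AANAT, the acetyltransferase whose activity sets the nightly rhythm of melatonin, was abundant at each time of day. It measured 52.2, 47.1 and 61.7 FPKM at dawn, 61.6, 58.5 and 59.2 FPKM at mid-day, 55.1, 44.5 and 41.7 FPKM at dusk and 43.9, 52.6 and 48.7 FPKM at midnight, against 0.199 and 0.0847 FPKM in the pools. The midnight glands were not above the mid-day glands, and the difference from the pools was 6.35 ± 0.144 (limma, adjusted p = 5.48e-14). DDC, the decarboxylase that makes serotonin and also dopamine, differed far less. It ranged from 37.6 FPKM in a dusk gland to 181 FPKM in a dawn gland, against 39.1 and 34.0 FPKM in the pools. A single gland thus lay between the pools and the others above both, and the difference of 1.21 ± 0.456 (limma, adjusted p = 0.0386) was no longer called without either pool (adjusted p = 0.129 and 0.204) or without any 1 of 6 glands.

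**Figure D2:**
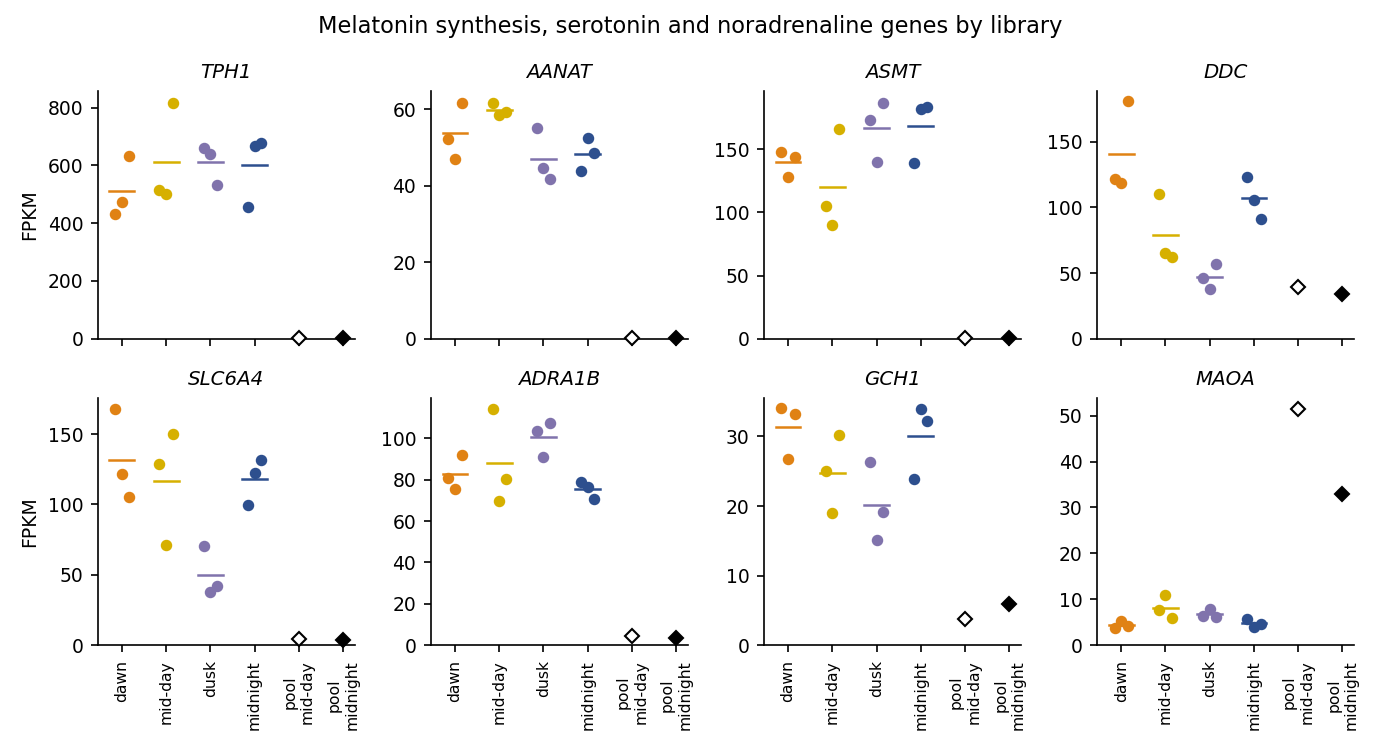
FPKM of 8 genes in each pineal library, grouped by time of day (filled circles, with a short line at the mean of 3), and in the mid-day pool (open diamond) and the midnight pool (black diamond). TPH1, AANAT and ASMT sit far above both pools at each time, DDC falls to the level of the pools at dusk, and MAOA lies below both pools in all 12 glands.

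The supply lines of the pathway did not follow its enzymes as a group. Of 8 genes for tetrahydrobiopterin, the cofactor that TPH1 needs, 2 were called higher and 3 lower, near the background of 22.6% and 28.7%. GCH1, which starts the synthesis of the cofactor, ranged from 15.2 to 34.0 FPKM against 3.75 and 5.97 FPKM, a difference of 2.33 ± 0.268 (limma, adjusted p = 4.99e-06). QDPR, which recycles it, was lower, with 17.6 to 35.7 FPKM against 69.5 and 69.9 FPKM (limma, adjusted p = 2.69e-06), and the glands did not overlap with the pools in either case. PCBD1, also of the recycling arm, was called higher by 0.71 on the log2 scale (limma, adjusted p = 1.50e-05). Of 12 genes of the methionine cycle, which provides the methyl group that ASMT transfers, 2 were called higher and 6 lower, beside 22.6% and 28.7% of all genes, and the members given next are best known from liver. BHMT was at 0.0233 to 0.585 FPKM in the glands against 28.9 and 29.0 FPKM, and MAT1A was at 0.155 to 1.2 FPKM against 32.3 and 24.1 FPKM. MAT2A, the methionine adenosyltransferase of most tissues outside the liver, ranged from 33.3 to 175 FPKM against 54.1 and 55.3 FPKM and was not called (limma, adjusted p = 0.469).

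Of 7 genes tested that handle serotonin, 1 was called higher and 2 lower, near the background of 22.6% and 28.7%. SLC6A4, the serotonin transporter of the cell membrane, ranged from 38.2 to 167 FPKM with a median of 113 FPKM, against 4.51 and 4.01 FPKM, a difference of 4.33 ± 0.462 (limma, adjusted p = 2.31e-06). Its lowest 3 glands were those of dusk, and no gland overlapped with the pools. MAOA, the monoamine oxidase that prefers serotonin, was lower, with 3.85 to 11.0 FPKM against 51.5 and 32.9 FPKM (limma, difference −2.72 ± 0.302, adjusted p = 3.36e-06). MAOB remained at 22.4 to 42.2 FPKM against 52.5 and 42.3 FPKM, a smaller difference of −0.59 whose call was lost without either pool. The vesicle transporters that load serotonin into storage granules were low in the glands, SLC18A1 at 0.0218 to 0.626 FPKM and SLC18A2 at 0.0204 to 1.09 FPKM, and the second hydroxylase TPH2, the form of brain serotonin neurons, reached at most 4.93 FPKM.

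Among the receptors with values here for noradrenaline, the transmitter of the pineal nerves, ADRA1B had the highest level. This alpha-1B receptor ranged from 69.8 to 114 FPKM against 4.38 and 3.46 FPKM, a difference of 4.29 ± 0.170 (limma, adjusted p = 3.37e-11), and no gland came near the pools. ADRA1A was lower, with 0.743 to 3.09 FPKM against 5.77 and 4.83 FPKM (limma, adjusted p = 0.00318; 0.0508 without the mid-day pool). In all, 7 of 9 adrenergic receptors had values, and 4 reached the minimum for testing. ADRA2A and ADRB1 had no values, so their levels are not known here.

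Of 25 other transmitter receptors 24 had values and 20 were tested, and 5 were called higher and 8 lower, beside 22.6% and 28.7% of all genes. Of those tested, 3 were under 1 FPKM in both pools, DRD4 and CHRNB4 among them. Another 5 were under 1 FPKM in all 12 glands, CHRM1, VIPR1 and VIPR2 among them. Each of these reached the minimum through 1 group only, and the counts are given as a description. Of 15 tested in each case, 4 were called higher and 3 lower without the mid-day pool, and 3 higher and 3 lower without the midnight pool. CHRNA3 and CHRNB4, subunits of the nicotinic acetylcholine receptor of autonomic ganglia, were both higher. CHRNA3 ranged from 20.9 to 95.5 FPKM against 1.16 and 1.15 FPKM (limma, difference 4.70 ± 0.484, adjusted p = 1.58e-06), and CHRNB4 from 4.57 to 16.0 FPKM against 0.143 and 0.418 FPKM (limma, difference 3.71 ± 0.321, adjusted p = 2.50e-07). The dopamine receptor DRD4 ranged from 3.90 to 66.2 FPKM with a median of 39.0 FPKM, against 0.0978 and 0.139 FPKM (limma, difference 5.32 ± 0.958, adjusted p = 0.000320). The serotonin receptor HTR1E was also called (limma, difference 2.87, adjusted p = 0.00826), and was not without the midnight pool (adjusted p = 0.102) or with voom (adjusted p = 0.0687). The cholecystokinin receptor CCKBR, at 2.47 to 57.3 FPKM against 1.77 and 1.59 FPKM, passed only narrowly (limma, adjusted p = 0.0476) and not without either pool, with voom or without any 1 of 7 glands.

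The receptors that were lower included several of forebrain and gut. CHRM1, the muscarinic receptor of cortex and hippocampus, was at 0.0221 to 0.302 FPKM against 6.07 and 5.95 FPKM. VIPR1 and VIPR2, the receptors for vasoactive intestinal peptide, were at no more than 0.264 and 0.456 FPKM in any gland, against 3.06 and 3.53 FPKM of VIPR1 and 2.83 and 1.47 FPKM of VIPR2 in the pools. GRM3, a receptor for glutamate, differed by −2.82 ± 0.486 (limma, adjusted p = 0.000222). The melatonin receptors MTNR1A and MTNR1B stayed under the minimum, with at most 0.427 and 0.0423 FPKM in a gland.

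Genes of cyclic AMP, the messenger through which noradrenaline drives melatonin synthesis in rodents, were near the background as a list. Among 25 tested, 6 were called higher and 7 lower, beside 22.6% and 28.7% of all genes. The members called higher included 2 regulatory subunits of protein kinase A, PRKAR1A and PRKAR2B, the transcription factor CREB1 that the kinase phosphorylates, and the cyclic AMP sensor RAPGEF4. PRKAR2B ranged from 34.1 to 55.3 FPKM against 19.4 and 20.5 FPKM (limma, difference 1.04 ± 0.149, adjusted p = 4.35e-05), and RAPGEF4 from 42.7 to 72.7 FPKM against 27.8 and 26.9 FPKM (limma, difference 1.14 ± 0.154, adjusted p = 2.46e-05). PRKAR1B and the adenylyl cyclase ADCY6 were lower by 1.67 and 1.24 on the log2 scale. No member of the list differed by 4-fold.

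Many of the photoreceptor genes listed were higher in the gland. Across 5 lists, covering transducin, cyclic GMP, ion channels, shutoff and outer segments, 49 of 52 members were tested, 38 were called higher and 2 lower, and 29 were at least 4-fold higher. The background for these calls was 22.6% higher and 2.7% at least 4-fold higher. Of the members tested, 21 were under 1 FPKM in both pools and so reached the minimum only through the glands, and the counts are given as a description. Without dusk 3, mid-day 2 and dusk 1 the count was 37 higher. It was 32 without the mid-day pool and 33 without the midnight pool.

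The gland held mainly the cone form of several phototransduction parts for which the rod and the cone each have a gene of their own. Transducin carries the signal from the opsin, and its gamma subunit was GNGT2, the cone gene, at 191 to 342 FPKM, while the rod gene GNGT1 ranged from 3.61 to 36.3 FPKM. The cone beta subunit GNB3 ranged from 139 to 221 FPKM against 50.7 to 82.0 FPKM of GNB1, which many tissues share. For these 2 steps no gland's cone level overlapped with its rod level. Of the alpha subunits, GNAT1 of rods ranged from 5.22 to 18.8 FPKM and GNAT2 of cones from 0.307 to 27.1 FPKM, so the glands held little of either, and GNAT2 was not called over the pools (limma, adjusted p = 0.392).

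The phosphodiesterase that hydrolyses cyclic GMP showed the same imbalance in its inhibitory subunit. PDE6H, the cone inhibitory subunit, ranged from 310 to 761 FPKM with a median of 541 FPKM, whereas the rod inhibitory subunit PDE6G ranged from 1.47 to 15 FPKM. The catalytic subunits were all scarce. PDE6A was at most 0.216 FPKM and was not tested, PDE6B of rods ranged from 1.76 to 6.49 FPKM, and PDE6C of cones ranged from 0.297 to 4.13 FPKM. PDE6H differed from the pools by 8.05 ± 0.265 (limma, adjusted p = 3.84e-12), PDE6B by 1.89 ± 0.352 (adjusted p = 0.000411) and PDE6C by 0.97 (adjusted p = 0.0889).

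Channel and shutoff genes did not follow 1 pattern. The cone channel subunit CNGB3 ranged from 21.1 to 117 FPKM and the rod subunit CNGB1 from 19.6 to 32.0 FPKM, against at most 0.0346 and 0.684 FPKM in a pool, with differences of 6.61 ± 0.464 and 4.45 ± 0.156 (limma, adjusted p = 2.43e-08 and 7.54e-12). Of the alpha subunits, the rod gene CNGA1 ranged from 3.59 to 23.5 FPKM, overlapping with CNGB1, and the cone gene CNGA3 from 0.213 to 3.36 FPKM, below CNGA1 in all 12 glands. Arrestins end the signal of an active opsin. The cone arrestin ARR3 ranged from 7.79 to 121 FPKM (limma, difference 5.88 ± 0.690, adjusted p = 6.03e-06), while the rod arrestin SAG stayed at 0.131 to 2.09 FPKM and was not called (adjusted p = 0.469). The opsin kinases ran as the alpha subunits did, with GRK1 of rods at 16.7 to 47.7 FPKM and GRK7 of cones at 0.714 to 14.4 FPKM.

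**Figure D3:**
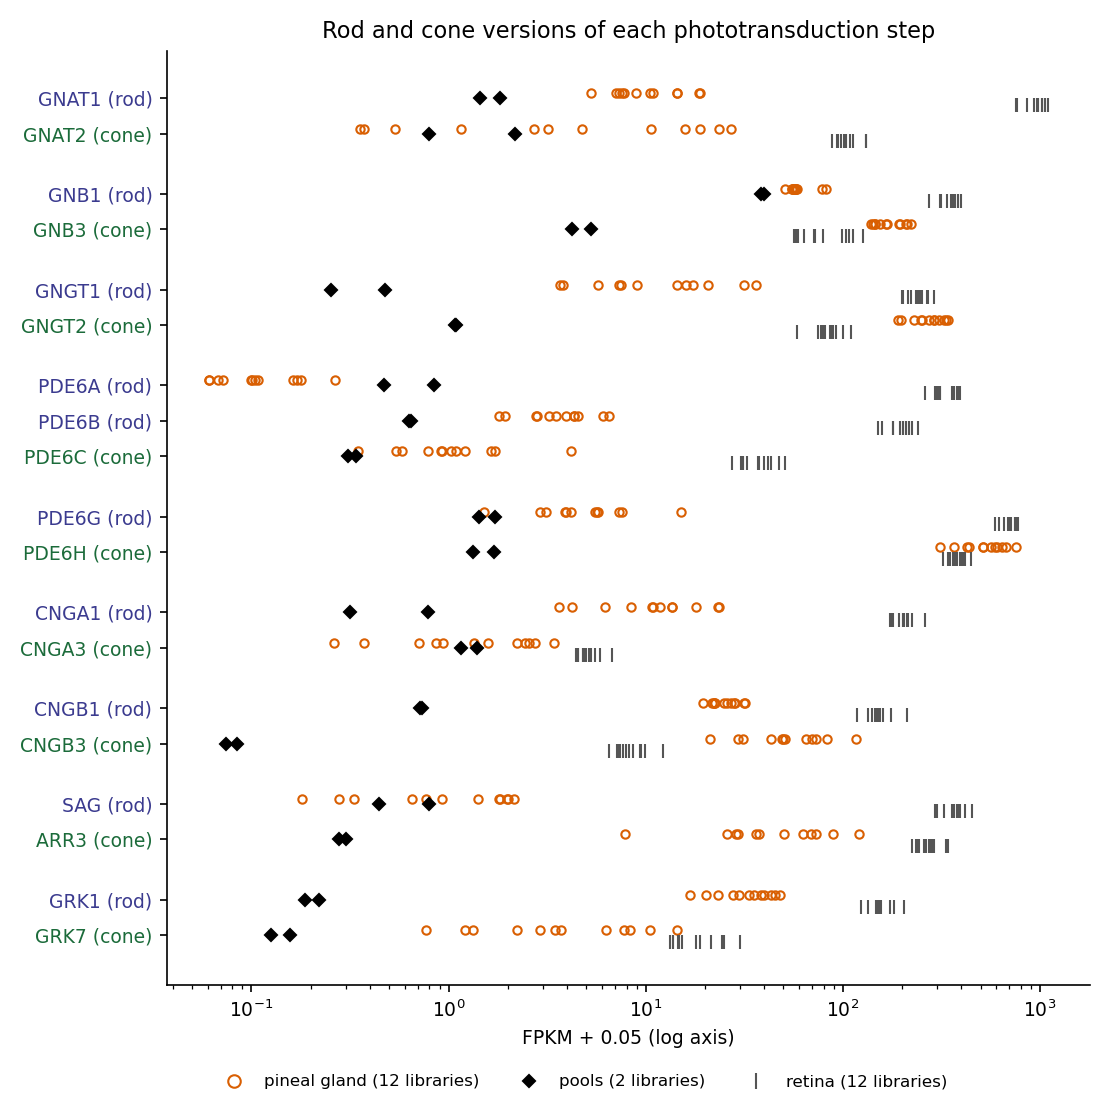
FPKM + 0.05 on a log axis for the rod and cone genes of 9 phototransduction steps, in the 12 pineal libraries (open circles), the 2 pools (black diamonds) and the 12 retina libraries (grey ticks). GNGT2, GNB3 and CNGB3 lie above the retina in the 12 glands, whereas GNAT1, PDE6A, PDE6G and SAG lie far below the retina.

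Opsins, which capture the light, were represented mainly by a cone opsin. OPN1SW, the short-wave cone opsin, measured 102, 157 and 4.68 FPKM at dawn, 81.4, 382 and 432 FPKM at mid-day, 532, 407 and 126 FPKM at dusk and 168, 104 and 50.1 FPKM at midnight, against 0.159 and 0.339 FPKM in the pools. All 12 glands lay above both pools but differed among themselves by up to 114-fold, and the difference of 7.47 ± 1.22 (limma, adjusted p = 0.000142) was not called with voom on recovered reads (adjusted p = 0.161). OPN1LW and OPN1MW were listed at 0 in these 14 libraries and in the 12 retina libraries. OPN3 was lower, with 0.289 to 0.601 FPKM against 2.82 and 2.39 FPKM (limma, adjusted p = 1.34e-07).

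Calcium sensors and regulators of the cascade were among the most abundant photoreceptor genes. GUCA1C, an activator of guanylate cyclase known from cones, ranged from 155 to 272 FPKM against 0.221 and 0.575 FPKM (limma, difference 7.90 ± 0.173, adjusted p = 3.94e-14). GUCA1A, another such activator, ranged from 36.1 to 238 FPKM (limma, difference 5.99 ± 0.598, adjusted p = 1.14e-06). Recoverin (RCVRN), which restrains opsin kinase, ranged from 111 to 199 FPKM against 2.48 and 2.79 FPKM (limma, difference 5.59 ± 0.143, adjusted p = 2.02e-13). Phosducin (PDC), which binds transducin beta and gamma, ranged from 38.5 to 502 FPKM (limma, difference 7.10 ± 0.710, adjusted p = 1.15e-06). The cyclase GUCY2D that those activators act on was at 0.516 to 6.42 FPKM and was not called (limma, adjusted p = 0.0889). It was called with the 4 times fitted as groups (adjusted p = 0.0473) and with the time-matched libraries (adjusted p = 0.0245).

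Outer segment genes were higher in 12 of 16 cases, beside 22.6% of all genes. Of the 16, 7 were under 1 FPKM in both pools and so reached the minimum only through the glands. PRPH2 and ROM1, partner proteins of the disc rim, ranged from 92.4 to 144 FPKM and from 51.2 to 104 FPKM, against at most 1.31 and 3.17 FPKM in a pool (limma, differences 6.06 ± 0.161 and 4.49 ± 0.228, adjusted p = 3.19e-13 and 5.97e-10). TULP1, which helps to carry proteins to the outer segment, ranged from 62.1 to 123 FPKM (limma, difference 6.71 ± 0.187, adjusted p = 5.36e-13). The retinal transporter ABCA4 was at 0.680 to 8.24 FPKM and was not called (adjusted p = 0.411). CRB1 was the 1 member called lower, at 1.82 to 4.86 FPKM against 6.78 and 6.61 FPKM (adjusted p = 0.000833). Of 10 visual cycle genes, 1 of them under 1 FPKM in both pools, 6 were called higher, beside the same 22.6%. They included RDH12, a retinal reductase of photoreceptors, at 220 to 420 FPKM against 2.79 and 2.37 FPKM (limma, difference 6.59 ± 0.198, adjusted p = 1.33e-12), and RPE65, the isomerase of the pigment epithelium, at 13.8 to 47.1 FPKM against 3.12 and 3.91 FPKM (limma, difference 2.72 ± 0.351, adjusted p = 1.53e-05).

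Of 25 transcription factors of photoreceptors, pinealocytes and their relatives, 19 were tested, of which 11 were called higher and 6 lower, beside 22.6% and 28.7% of all genes. Of those tested, 7 were under 1 FPKM in both pools and 2 under 1 FPKM in all 12 glands. Each of these reached the minimum through 1 group only, and the counts are given as a description. CRX, the cone-rod homeobox factor, was the most even of the leading genes, with 157 to 224 FPKM and a mean of 190 ± 18.0 FPKM (SD, n = 12) against 0.355 and 0.399 FPKM (limma, difference 7.76 ± 0.104, adjusted p = 1.04e-15). OTX2, which acts upstream of CRX, ranged from 86.9 to 150 FPKM against 2.16 and 2.52 FPKM (limma, difference 5.30 ± 0.163, adjusted p = 1.71e-12). RAX2, a homeobox factor of photoreceptors, ranged from 59.6 to 123 FPKM (limma, difference 7.21 ± 0.247, adjusted p = 5.88e-12). The LIM factors LHX4 and ISL2 ranged from 30.6 to 52.5 FPKM and from 17.3 to 29.4 FPKM, against at most 0.177 and 0.253 FPKM in a pool (limma, differences 6.19 ± 0.179 and 5.01 ± 0.171, adjusted p = 8.44e-13 and 5.71e-12).

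BSX, a homeobox gene with a role in the pineal gland of fish and frogs, had no read in either pool and 18.9 to 29.4 FPKM in the glands. Its mean level was at least 269-fold higher than the level that 3 reads over the 2 pools would give. NRL and NR2E3, the factors that direct rods, stayed at 0.913 to 1.99 FPKM and 0.354 to 1.89 FPKM, and their small differences of 0.68 and 1.08 were not called without either pool. NEUROD1 was higher (limma, difference 2.78 ± 0.230, adjusted p = 1.56e-07), whereas NEUROD4, MEIS2 and TBX2 were lower by 2.94, 3.05 and 1.67 on the log2 scale.

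Genes of the ribbon synapse, the release site of photoreceptors and also a structure of pinealocytes, were called higher in 13 of 24 tested and lower in 5, beside 22.6% and 28.7% of all genes. Of the 24, 1 (CPLX4) was under 1 FPKM in both pools and so reached the minimum only through the glands. CACNA1F and CACNA2D4, subunits of the calcium channel of photoreceptor terminals, ranged from 30.6 to 40.0 FPKM and from 46.7 to 91.6 FPKM, against at most 3.56 and 1.25 FPKM in a pool (limma, differences 3.31 ± 0.117 and 5.43 ± 0.204, adjusted p = 8.21e-12 and 1.84e-11). STX3, the syntaxin of ribbon synapses, was at 42.7 to 65.9 FPKM against 8.48 and 7.76 FPKM, whereas STX1A of conventional synapses was at 1.99 to 3.73 FPKM against 13.1 and 12.1 FPKM (limma, differences 2.62 ± 0.143 and −1.96 ± 0.174, adjusted p = 1.33e-09 and 3.40e-07). Of the complexins, which regulate vesicle fusion, CPLX4 of ribbon synapses was higher and CPLX2 of conventional synapses lower, with differences of 4.20 ± 0.681 and −4.76 ± 0.858 (limma, adjusted p = 0.000131 and 0.000321). CPLX1, also of conventional synapses, was higher, at 27.3 to 105 FPKM against 15.8 and 16.5 FPKM (limma, difference 1.67 ± 0.380, adjusted p = 0.00200). SLC17A7, which loads glutamate into vesicles, ranged from 38.6 to 56.1 FPKM against 10.5 and 10.7 FPKM (limma, difference 2.08 ± 0.115, adjusted p = 1.56e-09). RIMS1, an active zone protein, was lower at 0.809 to 4.15 FPKM against 22.2 and 23.1 FPKM. BSN also lay below both pools, at 2.22 to 4.16 FPKM against 6.93 and 7.72 FPKM. SYP lay above both, at 186 to 261 FPKM against 57.2 and 52.6 FPKM, as did VAMP2, at 36.3 to 52.5 FPKM against 24.2 FPKM in each. The syntaxins and complexins given are chosen members, and a division of the list by synapse type was not tested.

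Clock genes were spread across both directions at small size. Of 23 tested, 12 were called higher and 5 lower, beside 22.6% and 28.7% of all genes, and none of the rises reached 4-fold. The counts called higher were 10 without dusk 3, 5 without the mid-day pool and 6 without the midnight pool. The repressors BHLHE40 and BHLHE41 were higher by 1.19 ± 0.288 and 1.07 ± 0.234 on the log2 scale (limma, adjusted p = 0.00318 and 0.00147). ARNTL2 was lower by 2.18 (limma, adjusted p = 8.80e-07). CSNK1E, a kinase of the PER proteins, was higher at 12.8 to 18.8 FPKM against 11.2 and 9.11 FPKM (limma, adjusted p = 0.000490), and HLF was lower at 10.4 to 15.3 FPKM against 24.6 and 22.0 FPKM (limma, adjusted p = 0.000321).

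**Figure D4:**
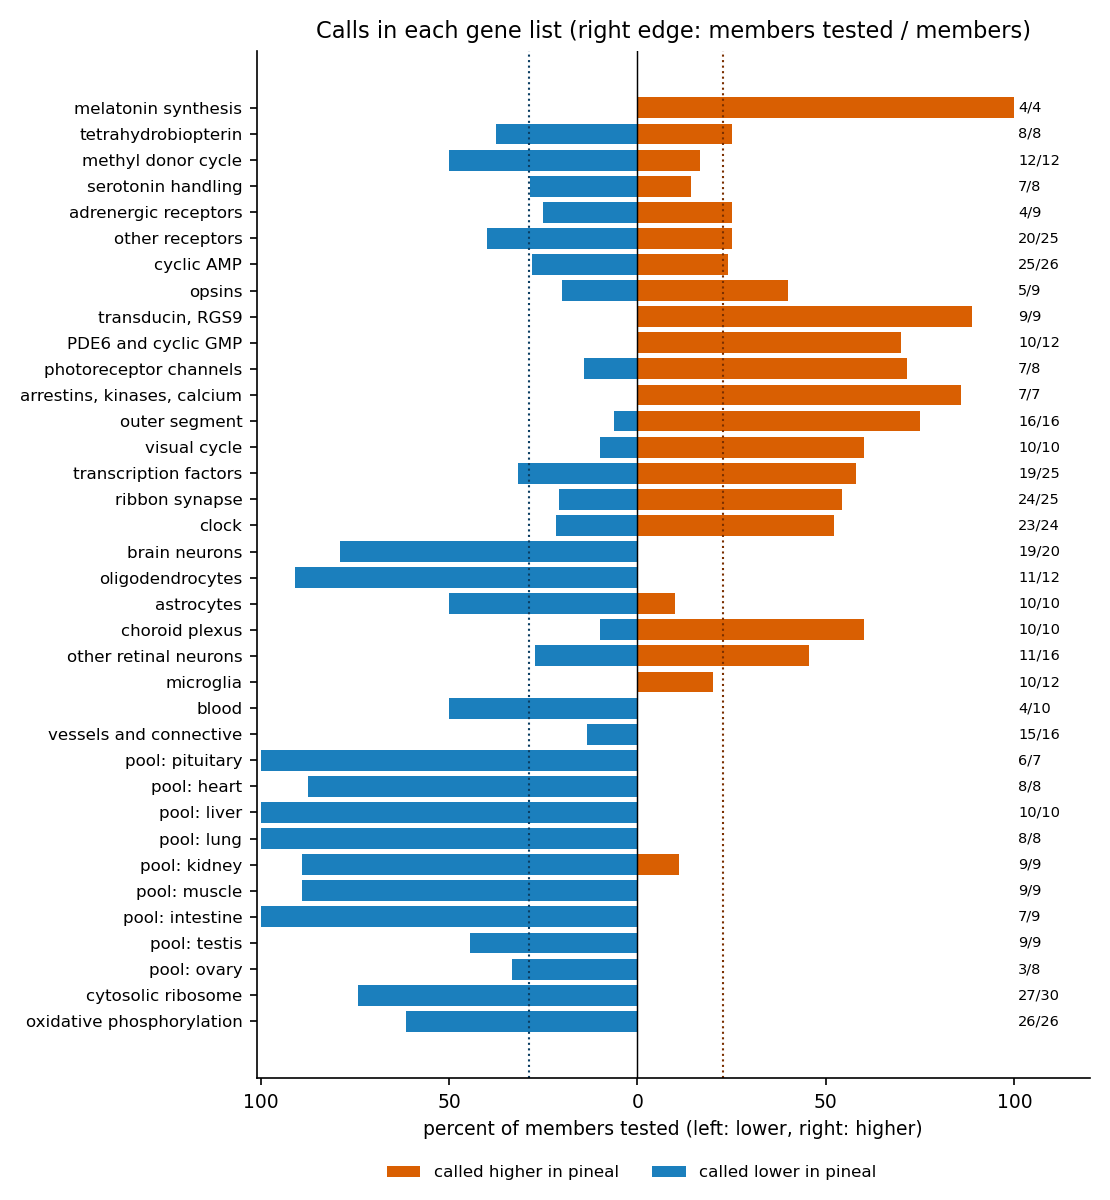
Share of tested members called higher (orange, to the right) and lower (blue, to the left) in each of 36 gene lists, with the number tested of all members at the right edge and dotted lines at the shares over all 22214 genes (22.6% higher, 28.7% lower). Melatonin synthesis and the photoreceptor lists extend to the right, and brain neuron, myelin, ribosome, oxidative phosphorylation and most pooled organ lists extend to the left.

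Markers of other cells showed what else the glands held. Astrocyte genes were present, with GFAP at 146 to 386 FPKM against 232 and 187 FPKM (limma, adjusted p = 0.386) and 5 of 10 members called lower, beside 28.7% of all genes. SOX9, a factor of glia, was the 1 astrocyte gene called higher, at 36.6 to 100 FPKM against 6.0 and 9.0 FPKM (limma, difference 2.84 ± 0.278, adjusted p = 9.19e-07). Microglial genes had 2 of 10 called, both higher, near the background of 22.6%, of which TYROBP differed by 1.49 (adjusted p = 0.000118) and C1QB by 0.79 (adjusted p = 0.0121; not called without either pool). Genes of vessels and connective tissue had 2 of 15 called, CLDN5 and MYH11, both lower, under the background of 28.7%, and neither called without the midnight pool.

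Neuronal and myelin genes were lower. Of 19 brain neuron genes tested, 15 were called lower and none higher, and of 11 oligodendrocyte genes 10 were called lower, beside 28.7% of all genes. Of the brain neuron genes, 4 were under 1 FPKM in all 12 glands, GABRA6 among them, and so reached the minimum only through the pools. The counts are given as a description. GABRA6, a receptor subunit of cerebellar granule cells, was at most 0.394 FPKM in a gland against 16.4 and 15.8 FPKM, and CAMK2A, a kinase of forebrain excitatory neurons, was at 0.586 to 3.47 FPKM against 60.5 and 53.3 FPKM. The myelin gene MBP ranged from 2.97 to 81.7 FPKM against 114 and 166 FPKM, and the dawn 2 gland was the highest (limma, difference −3.17, adjusted p = 0.00423; not called without the midnight pool). Fewer oligodendrocyte genes were called lower without the midnight pool, and fewer brain neuron genes without either pool, where 15 of them met the minimum. The median difference of the oligodendrocyte genes was −3.17, and −2.97 without the midnight pool. That of the brain neuron genes was −2.31, against −2.01 without the mid-day pool and −2.39 without the midnight pool.

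Choroid plexus genes, which mark the secretory tissue beside the pineal recess, were higher in 6 of 10 cases, beside 22.6% of all genes, and uneven among glands. Of the 10, 2 were under 1 FPKM in both pools and so reached the minimum only through the glands. The summed level of the 10 ranged from 468 FPKM in dawn 3 to 1960 FPKM in mid-day 2, against 221 and 130 FPKM in the pools. TTR, the thyroxine carrier that leads choroid plexus, ranged from 239 to 1091 FPKM against 112 and 52.1 FPKM (limma, difference 2.77 ± 0.508, adjusted p = 0.000373). PRLR, the prolactin receptor, ranged from 5.46 to 268 FPKM against 6.92 and 4.40 FPKM, and FOLR1, a folate receptor, from 4.09 to 150 FPKM against 4.15 and 2.07 FPKM. Mid-day 2 was the highest and mid-day 1 the lowest gland for both, and their calls (limma, adjusted p = 0.0165 and 0.00773) were not made without the midnight pool, nor that of PRLR without the mid-day pool. HTR2C, a serotonin receptor that choroid plexus uses, followed the same order with 108 FPKM in mid-day 2 and 1.24 FPKM in mid-day 1, and was not called (adjusted p = 0.0957). OTX2 is also a choroid plexus gene, and it was highest in dawn 1 and lowest in midnight 3. The part of choroid plexus RNA in the levels of these genes was not tested.

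**Figure D5:**
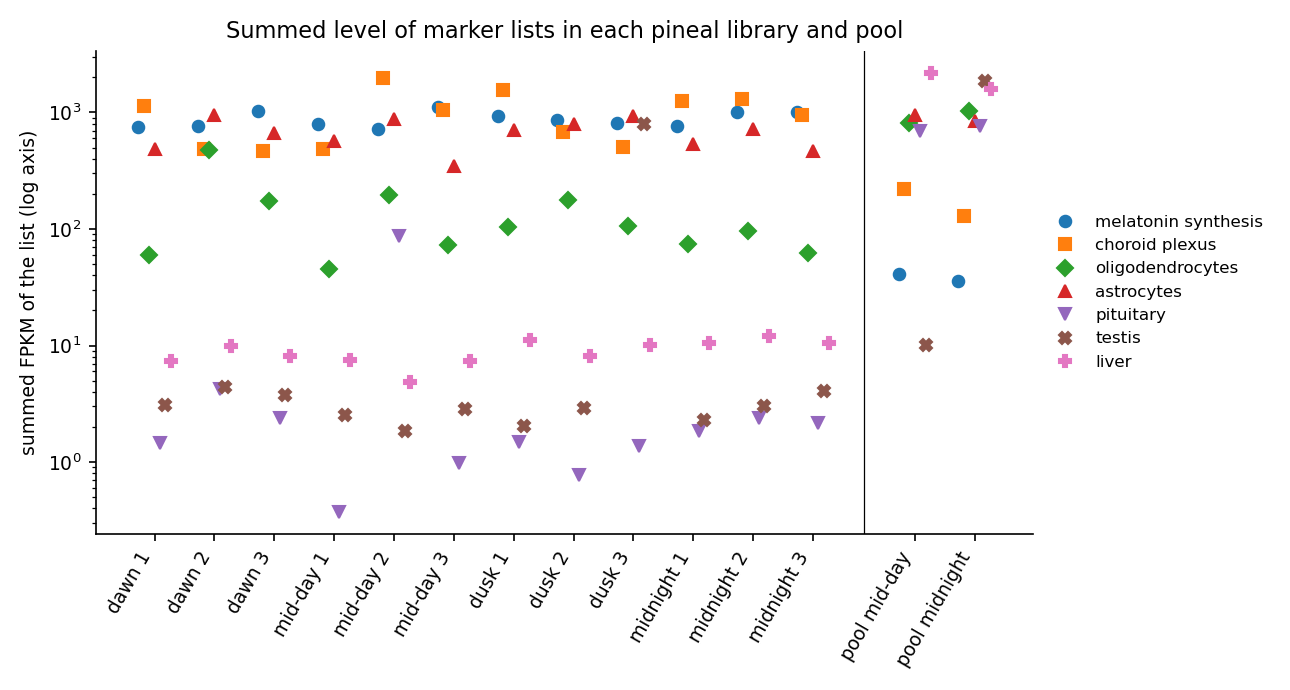
Summed FPKM on a log axis of 7 marker lists in each pineal library and each pool, with markers offset sideways for legibility. Melatonin genes are level over the 12 glands (715 to 1104 FPKM), choroid plexus genes peak in mid-day 2 (1960 FPKM), pituitary genes are high in mid-day 2 alone among glands, and testis genes are high in dusk 3 and the midnight pool but not in the mid-day pool.

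Genes of the pooled organs were among the largest falls. They included ALB, PRL, MYL2, CKM, APOH, CA3, FGA, APOA2, ACTA1, FGB and CGA. They comprise plasma proteins of liver (ALB, APOH, FGA, APOA2 and FGB), proteins of heart and skeletal muscle (MYL2, CKM, CA3 and ACTA1) and pituitary hormones (PRL and CGA). ALB, serum albumin, had no read in 8 glands and at most 0.127 FPKM in the others, against 669 and 461 FPKM (limma, difference −10.08 ± 0.151, adjusted p = 1.04e-15). PRL, prolactin, had no read in 10 glands and at most 0.917 FPKM, against 466 and 542 FPKM (limma, difference −9.78 ± 0.337, adjusted p = 6.20e-12). MYL2, a myosin light chain of heart and slow muscle, was at most 0.12 FPKM in a gland against 405 and 458 FPKM (limma, difference −9.64 ± 0.144, adjusted p = 1.04e-15). APOA2 had no read in any gland, and its pool mean was at least 8226-fold higher than 3 reads over the 12 glands would give.

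Over the 9 lists of pooled organs, 69 of 77 members were tested, 59 were called lower and 1 higher, and in 58 of them the fall was at least 4-fold (background 28.7% called lower and 8.04% at least 4-fold lower). Of the members tested, 39 were under 1 FPKM in all 12 glands and so reached the minimum only through the pools, and nothing is read from these counts against the background. A gene seen in the pools and not in the glands fails the minimum once a pool is left out. The test then called 23 lower of 30 tested without the mid-day pool, and 15 lower of 25 tested without the midnight pool. Of the liver list all 10 members were lower, and of the lung, pituitary and intestine lists all those tested were lower, 8, 6 and 7 in number. In these 4 lists 8, 6, 5 and 6 members were under 1 FPKM in all 12 glands and reached the minimum only through the pools. The counts by list are likewise given as a description. The pools were not equal in these organs, with a summed level of lung genes of 464 FPKM at mid-day and 180 FPKM at midnight, and of skeletal muscle genes of 1936 and 825 FPKM. NPHS1, nephrin of the kidney filter, was the 1 member called higher, at 0.837 to 4.48 FPKM against 0.449 and 0.558 FPKM (limma, adjusted p = 0.00534; 0.0604 without the mid-day pool). Of 9 testis genes tested 4 were called lower, and the calls depended on which pool was left out. The median difference was −3.42 with both pools. It was −6.90 without the mid-day pool, with 9 tested, and −1.66 without the midnight pool, with 5 tested.

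Genes of cytosolic ribosomes and of oxidative phosphorylation were called lower by small amounts. Of 27 ribosomal protein genes tested 20 were called lower and none higher, with a median difference of −0.60 on the log2 scale, and of 26 oxidative phosphorylation genes 16 were called lower and none higher, with a median of −0.62. Over all genes tested 28.7% were called lower, and the median was −0.08. An example is CYC1, which encodes cytochrome c1 of the respiratory chain, at 32.8 to 45.7 FPKM against 79.6 and 79.2 FPKM. Several ribosomal genes have many near-identical copies in the genome, between which reads may have been divided.

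The most abundant names in the glands by mean level were RN7SKP274, RN7SL1, RN7SKP239, MALAT1, RMRP, JUND, TPH1, TTR, PDE6H and SPARCL1, in that order. RN7SKP274, a copy of the 7SK RNA that restrains transcription elongation, ranged from 7014 to 10737 FPKM against 561 and 557 FPKM, and took 2.92 to 4.37% of the summed FPKM of a gland (limma, difference 4.00 ± 0.402, adjusted p = 1.22e-06). RN7SKP239, another copy, ranged from 1732 to 2610 FPKM against 364 and 409 FPKM (limma, difference 2.52, adjusted p = 3.19e-07). The retina held both RNAs too, with 4992 to 8204 FPKM of RN7SKP274 and 1696 to 2248 FPKM of RN7SKP239. RN7SL1, the RNA of the signal recognition particle, and MALAT1, a nuclear non-coding RNA, had medians of 3275 and 1196 FPKM, and neither was called (limma, adjusted p = 0.513 and 0.882).

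Some of the genes that were high over the pools varied widely among glands, and in part by time of day. DRD4 was at 3.90 to 5.34 FPKM in the 3 dusk glands and at 20.5 to 66.2 FPKM in the other 9. CCKBR and HTR1E were also lowest at dusk, with means of 3.28 ± 0.851 and 4.58 ± 0.524 FPKM (SD, n = 3), and highest at dawn, with means of 44.5 ± 11.4 and 27.7 ± 9.55 FPKM. LRTM1, which encodes a leucine-rich repeat membrane protein, ran opposite, with 7.65 to 15.2 FPKM at dawn and 103 to 155 FPKM at dusk, against at most 0.0835 FPKM in a pool. ARR3 and PDC were likewise higher at dusk than at dawn in every gland, at 73.4 to 121 FPKM against 7.79 to 36.4 FPKM for ARR3 and 354 to 502 FPKM against 38.5 to 213 FPKM for PDC. GUCA1B, another cyclase activator, ranged from 0.550 FPKM in dawn 3 to 396 FPKM in dusk 1, and its difference from the pools was not called (limma, 4.00 ± 1.73, adjusted p = 0.0670). It was called with the 4 times fitted as groups (adjusted p = 0.0131), with the time-matched libraries (0.0159), without dawn 2 (0.0394) and without dawn 3 (0.0191). These values describe 3 glands a time and were not tested between times. With the 4 times fitted as groups the test called 5276 genes higher and 6455 lower than the pools.

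The retina, the other tissue of the series with photoreceptors, separated the photoreceptor genes that the gland and the eye share from those the gland lacks. In the fit of 12 pineal against 12 retina libraries 20984 of 25673 genes (81.7%) were called, 8736 higher in the gland (34%) and 12248 lower (47.7%). The retina libraries were of 2 kinds, since 10 of them differed from the pineal libraries, the pools and the other 2 retina libraries (dawn 2 and mid-day 1) in which genes held reads. In those 10 libraries 711 genes were at 3 FPKM or more that were at 1 FPKM or less in all the others, and 21 genes had the reverse pattern. Against the 2 retina libraries alone 6139 of 20839 genes were called higher (29.5%) and 5443 lower (26.1%). In both gene counts the glands, the pools and these 2 libraries were required to be alike. Neither count can show whether glands and pools are alike in this. Genes at 0 made up 43.1 to 47.9% of all genes in the glands, 37.5% in the mid-day pool and 35.7% in the midnight pool. They made up 44.8% and 45.7% in these 2 retina libraries and 33.5 to 35.2% in the other 10. Whether glands and pools differed in this way was not tested.

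Of the 52 photoreceptor members, 44 were lower in the gland than in the retina and 8 were higher, beside 47.7% and 34% of all genes. Against the 2 libraries 42 were lower and 6 higher, beside 26.1% and 29.5%. Members such as PDE6A (at most 0.216 FPKM in a gland) reached the minimum only through the retina. The counts are given as a description. PDE6A, SAG and PDE6G were lower by 9.21, 7.97 and 7.06 on the log2 scale (limma, adjusted p = 9.25e-33, 5.59e-21 and 4.06e-20), and the rod factor NRL by 6.91. Against the 2 libraries these 4 genes were lower by 9.22, 8.01, 7.05 and 6.85 (limma, adjusted p = 2.82e-14, 1.45e-08, 4.43e-08 and 1.37e-11). The genes above the retina included GNGT2, GNB3, CNGB3 and GUCA1C, by 1.68, 1.08, 2.56 and 1.41 (limma, adjusted p = 6.62e-14, 5.83e-08, 1.49e-11 and 1.06e-14), and these differences were 1.52, 0.73, 2.60 and 1.30 against the 2 libraries. Each of them is known from cones, which are a minority of the photoreceptors of the retina, and GNB3 is also used by bipolar cells. IMPG2 and CRX were close to the retina, with differences of 0.17 and −0.57, of which that of IMPG2 was not called against the 2 libraries (adjusted p = 0.265).

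The melatonin genes divided. TPH1 and ASMT were higher than in the retina by 5.52 and 5.61 (limma, adjusted p = 1.94e-20 and 4.56e-14), and DDC by 6.79, with 0.0937 to 0.628 FPKM in the retina. Against the 2 libraries the differences of TPH1, ASMT and DDC were 5.80, 6.12 and 6.69 (limma, adjusted p = 6.19e-11, 1.39e-08 and 2.76e-08). AANAT was not called, with 40.2 to 87.1 FPKM in the retina and a difference of −0.14 (limma, adjusted p = 0.186; 0.412 against the 2 libraries). SLC6A4, ADRA1B, LHX4, ISL2 and BSX were each higher in the gland than in the retina, by 7.20, 4.32, 2.64, 3.99 and 5.65. Against the 2 libraries these differences were 7.45, 4.29, 2.35, 3.77 and 5.65 (limma, adjusted p = 1.02e-08, 6.48e-10, 6.70e-08, 2.83e-10 and 2.83e-12). BSX had no read in any retina library.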

How the data were processed

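FPKM values per gene in 26 libraries were deposited by the authors. Per the submitters' processing notes, STAR 2.3.0e, Subread, featureCounts and the human build hg19 were used. Annotation and strandedness are not given in the sources used here, so reads of copies, overlapping or antisense genes may be divided or lost. The deposited tables of comparisons, made with DESeq2 per the same notes, were not used. Of 22214 genes tested, 13856 have a symbol in the macaque RefSeq annotation.

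FPKM was tested as log2(FPKM + 0.5) with limma 3.58.1 in R 4.3.3 along a mean-variance trend, two-sided, with Benjamini-Hochberg adjustment, for genes with at least 1 FPKM in 2 libraries. Scripts were tested on simulated data. FPKM steps gave whole reads within 0.0001 for 42804 of 42804 genes above 0, used for depth, for voom and for the floor of 3 reads over a group. Floors cover counting error only. Values after ± are standard errors from limma, or SD among glands where so marked.

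Named genes are the 12 largest called differences each way with a mean of at least 5 FPKM, no overlap and a gene name that is not a clone, locus or small RNA copy, the 10 most abundant, and members of 36 lists; some of these are not reported here. Members and lists were chosen with earlier results of these data known. Pseudocount, filter, scaling, trend, voom, time terms and left-out libraries were varied.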

Additional observations from a re-analysis of the deposited data

How the results depend on the processing

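No paired analysis was possible because the pools carry no replicate numbers. Under the alternatives, 5022 genes called higher than the pools ranged from 3445 to 5315 and kept within 1.5 times. The 6377 called lower became 3551 with a minimum of 5 FPKM (13318 genes tested) and 11268 with no minimum (38169 tested). Leaving out each library gave 3445 to 5089 higher and 3020 to 6348 lower, the lowest counts being those without a pool (3882 lower without the mid-day pool and 3020 without the midnight pool). With a minimum of 5 FPKM 54.9% of calls were higher, against 44.1% in the main analysis. Of 140 genes named, 111 kept their direction and their side of the threshold under every alternative. CNGA3, at 0.08 and not called, turned to −0.0341 with TPM scaling, −0.0519 with voom and −0.0214 to 0.2006 with each library left out (below 0 without the mid-day pool and without midnight 1), and MALAT1, at 0.03 and not called, turned to −0.0214 with TPM scaling. Against the retina, 12248 genes called lower became 5443 against the 2 retina libraries and 6612 with a minimum of 5 FPKM, and leaving out each library gave 8628 to 8711 higher and 12048 to 12263 lower. With the replicate number as a block the counts were 8708 and 12215, and the numbers do not pair the samples (correlation of deviations −0.0511 to 0.0996, 0 of 12 over 0.1). The cause of these shifts was not tested. The 2 pools limit the precision of each comparison with them.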

Other observations

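Genes outside the lists also stood out, and they were chosen after their values were seen. SLC5A7, the high-affinity choline transporter of cholinergic neurons, ranged from 156 to 352 FPKM in the 12 glands against 1.57 and 1.38 FPKM in the pools, and 0.436 to 1.40 FPKM in the retina (limma against the pools, difference 6.83, adjusted p = 2.11e-11). CHAT, the enzyme that makes acetylcholine and usually accompanies it, was at most 0.426 FPKM in a gland and did not reach the minimum for testing. COX6B2, a cytochrome oxidase subunit known from testis, ranged from 78.8 to 156 FPKM against 0.0492 and 1.43 FPKM (limma, difference 6.82, adjusted p = 2.24e-10), while the general form COX6B1 was lower at 31.3 to 40.4 FPKM against 62.8 and 63.8 FPKM (adjusted p = 4.49e-06). COX6B2 was high in all 12 glands and not in dusk 3 alone.

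CCDC63, a coiled-coil gene, ranged from 53.9 to 204 FPKM in the glands, was at 0.0802 and 8.93 FPKM in the mid-day and midnight pools and reached at most 0.0911 FPKM in the retina (limma against the pools, difference 5.54, adjusted p = 9.41e-06). LRRC38, an auxiliary subunit of a potassium channel, ranged from 77.4 to 211 FPKM against 6.71 and 1.90 FPKM (limma, difference 5.14, adjusted p = 5.49e-08). SLURP1, a secreted relative of LYPD2, had no read in either pool and 5.11 to 87.1 FPKM in the glands, a mean at least 197-fold higher than 3 reads over the 2 pools would give. CHRDL2 and GDF10, genes of bone morphogenetic protein signalling, ranged from 10.2 to 44.2 FPKM and from 48.0 to 152 FPKM, against at most 0.301 and 2.08 FPKM in a pool (limma, adjusted p = 3.17e-07 and 3.89e-08).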
